A study of Rattus norvegicus with 7 samples.

Results

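The 9 genes for glucose uptake and the first regulated steps of glycolysis described here were measured in cardiomyocytes that had received 1 of 7 microRNAs (miRNAs). They were chosen by symbol: the glucose transporters Slc2a1 and Slc2a4, the hexokinases Hk1 and Hk2, the phosphofructokinases Pfkp, Pfkm and Pfkl, and the bifunctional regulators Pfkfb2 and Pfkfb3. All 9 were found, each in 1 row, among the 17141 genes listed. Each had a mean of at least 1 RPKM (read number per gene length and per library size), as did 12330 genes in all. The cells were ventricular cardiomyocytes of wild type Wistar rats taken at postnatal day 0. Atria had been cut away, and the cells that did not settle on plastic, described as mostly cardiomyocytes, were kept. They were grown in medium with glucose at 4.5 g/l and 5% serum, transfected 24 h after plating at 25 nM, and lysed 72 h after transfection. The 7 groups, 1 library each, received cel-miR-67, miR-302d-3p, miR-373-3p, miR-1825, miR-199a-3p, miR-33b* or miR-590-3p. The last 6 carry the prefix for human sequences, and cel-miR-67 is a nematode miRNA. It serves as the reference, called the control here, because the deposited ratios divide by it. Medium, serum, dose and time were shared by all 7 groups, and the animals or litters behind a library were not given in the sources used here.

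Glucose enters heart cells through facilitative carriers. GLUT1, encoded by Slc2a1, is the carrier that prevails before birth and works without insulin, while GLUT4, encoded by Slc2a4, prevails in the adult heart and is moved to the surface by insulin and contraction. Hexokinase traps the sugar as glucose 6-phosphate, and phosphofructokinase then commits it to glycolysis. The PFKFB enzymes make and break fructose 2,6-bisphosphate, the strongest activator of phosphofructokinase.

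The whole reads behind the RPKM values came to between 22616067 and 31963293 per library. Transcripts of the mitochondrial genome held from 27.7% (miR-199a-3p) to 41.4% (miR-590-3p) of them. With 1 library per group there is no replicate spread and no test. Intervals given are 95% exact intervals of counting error alone, and "higher" and "lower" describe these libraries. Cardiomyocyte markers were abundant in all 7, with 11 matched genes summing to between 6610 (miR-590-3p) and 9054 RPKM (cel-miR-67). In RNA from whole cultures, fewer cells of a type and less RNA per cell cannot be told apart.

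Changes are log2 ratios to the cel-miR-67 library after 1 RPKM was added to both values, and a gene is counted when it passes 2-fold. Of the 54 pairs of a gene and a miRNA, 4 were counted as higher and 1 as lower. Slc2a1 was higher after miR-302d-3p and also after miR-373-3p, Pfkl after miR-373-3p and miR-33b*, and Pfkp was lower after miR-199a-3p. In the miR-373-3p library 2 of 9 members were counted as higher, where 1.15% of all 12330 genes were, and 0 as lower, where 1.87% of all genes were. After miR-302d-3p 1 of 9 was higher (1.31% of all genes) and 0 lower (2.11%). After miR-33b* 1 of 9 was higher (1.30%) and 0 lower (1.24%). After miR-199a-3p 0 were higher (1.04%) and 1 lower (1.52%). No member was counted in either direction after miR-590-3p (1.51% of all genes higher, 0.762% lower) or miR-1825 (2.00% higher, 1.63% lower). Whether 1 or 2 counted genes of 9 set the group apart from these shares was not tested. Each group has 1 library, and the members were chosen with earlier results of these data known. All 6 comparisons use the same cel-miR-67 library, and each value stands for its own comparison.

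**Figure D1:**
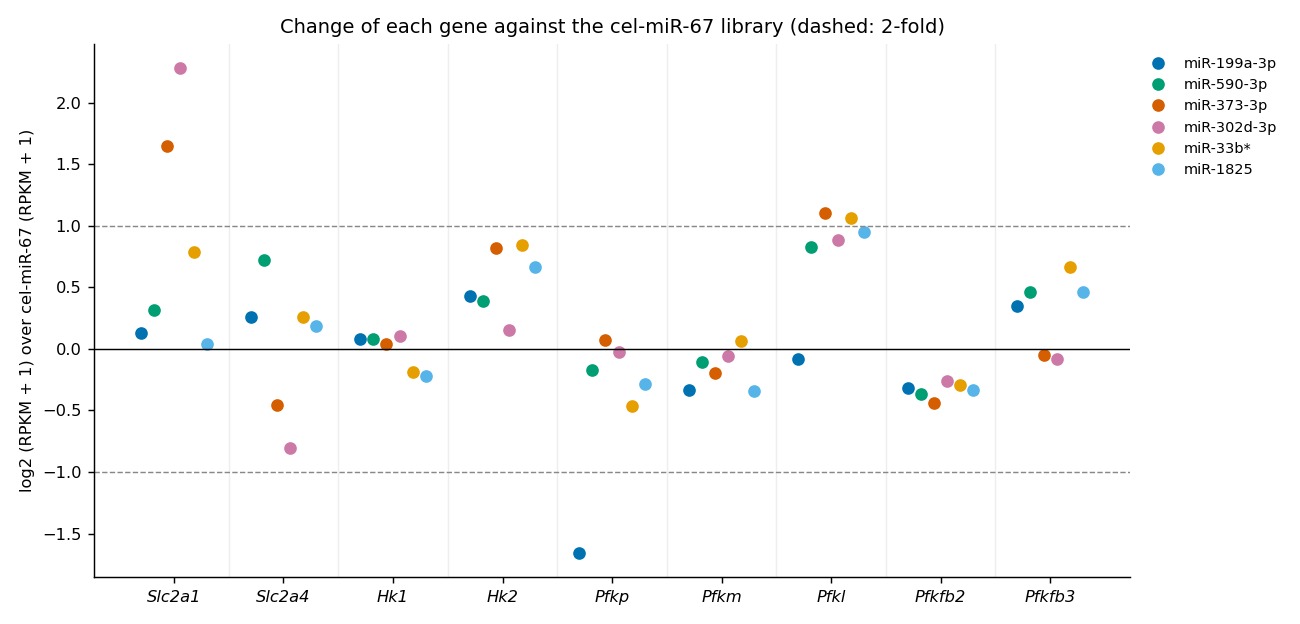
Change of each of the 9 genes (horizontal axis) against the cel-miR-67 library, on the log2 scale with 1 RPKM added to both values, with 1 point per miRNA library and dashed lines at 2-fold. Slc2a1 reaches 2.28 after miR-302d-3p, Pfkp lies at -1.66 after miR-199a-3p, and 5 of the 6 Pfkl points lie between 0.83 and 1.10.

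Slc2a1 varied most of the 9 genes. Its level was 21.6 RPKM in the cel-miR-67 library, 22.3 after miR-1825, 23.7 after miR-199a-3p, 27.2 RPKM after miR-590-3p, 38.0 after miR-33b*, 69.8 after miR-373-3p and 108.9 after miR-302d-3p. The miR-302d-3p and miR-373-3p libraries thus stood well above the other 5, whose highest value was 38.0 RPKM, and miR-33b* came next. Against the control the miR-302d-3p level was 5.03-fold higher (interval 4.75 to 5.32, from 10555 and 1371 reads), a log2 change of 2.28 that ranked 11 from the top among 12330 genes. The miR-373-3p level was 3.22-fold higher (3.04 to 3.42), a log2 change of 1.64 that ranked 23. After miR-33b* the level was 1.76-fold higher (1.64 to 1.88). In the order of levels, neighbours differed beyond counting error except miR-199a-3p over miR-1825 (1.07-fold, 0.997 to 1.14) and miR-1825 over cel-miR-67 (1.03-fold, 0.957 to 1.11). The SD of log2(RPKM + 1) over the 7 libraries was 0.89 for Slc2a1 and 0.195 for the median gene.

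Slc2a4 stood lowest in the same 2 libraries. It was at 6.99 RPKM after miR-302d-3p and 9.20 after miR-373-3p, against 13.0 in the control, 14.9 after miR-1825, 15.7 after miR-199a-3p and after miR-33b*, and 22.0 after miR-590-3p. The ranges of the pair and of the other 5 libraries did not overlap for either transporter. Nor did they for Pfkfb3 (2.29 to 2.36 against 2.48 to 4.51 RPKM). The share of all genes with such a gap is not given here, so the gap does not set these genes apart. Relative to the control, Slc2a4 was at 0.539-fold after miR-302d-3p (0.483 to 0.601) and 0.709-fold after miR-373-3p (0.639 to 0.788). Neither passed the 2-fold limit, with log2 changes of -0.81 and -0.45. After miR-590-3p it was 1.70-fold higher (1.55 to 1.86). The levels after miR-33b*, miR-199a-3p and miR-1825 followed one another within counting error.

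**Figure D2:**
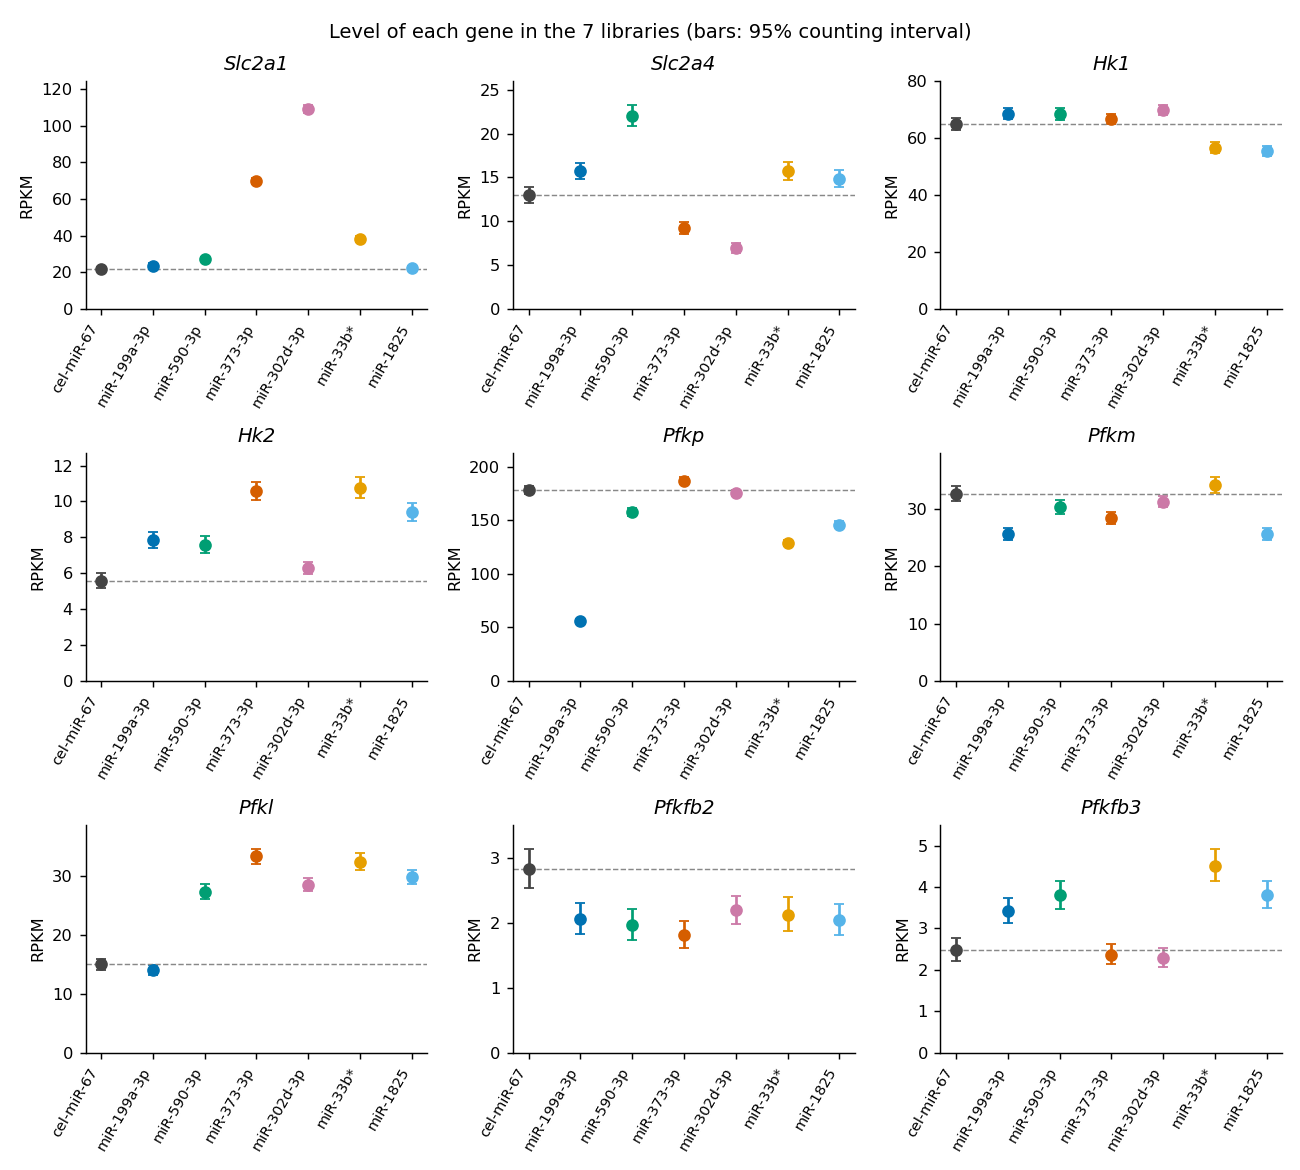
RPKM of each of the 9 genes in the 7 libraries, 1 panel per gene with its own axis from 0. Points are single libraries, bars are 95% counting intervals and the dashed line is the cel-miR-67 level. The miR-302d-3p point is the highest of Slc2a1 and the lowest of Slc2a4, and the miR-373-3p point is next to it in both.

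The balance of the 2 carriers, which does not depend on library size or on the control, differed likewise. Slc2a1 made up 62.5% of the summed RPKM of Slc2a1 and Slc2a4 in the cel-miR-67 library (interval 60.4% to 64.6%). It made up 94.0% after miR-302d-3p (93.5% to 94.4%) and 88.4% after miR-373-3p (87.5% to 89.1%). After miR-33b* the share was 70.7% (69.1% to 72.3%). Shares after miR-199a-3p (60.2%) and miR-1825 (60.0%) had intervals that overlapped that of the control, and miR-590-3p had the lowest, 55.3% (53.5% to 57.0%). As a ratio, Slc2a1 exceeded Slc2a4 by 1.67 times in the control, 1.24 times after miR-590-3p, 7.58 times after miR-373-3p and 15.6 times after miR-302d-3p. Both carriers together came to 34.6 RPKM in the control, 79.0 after miR-373-3p and 115.9 after miR-302d-3p, and to between 37.1 and 53.7 in the other 4 libraries.

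**Figure D3:**
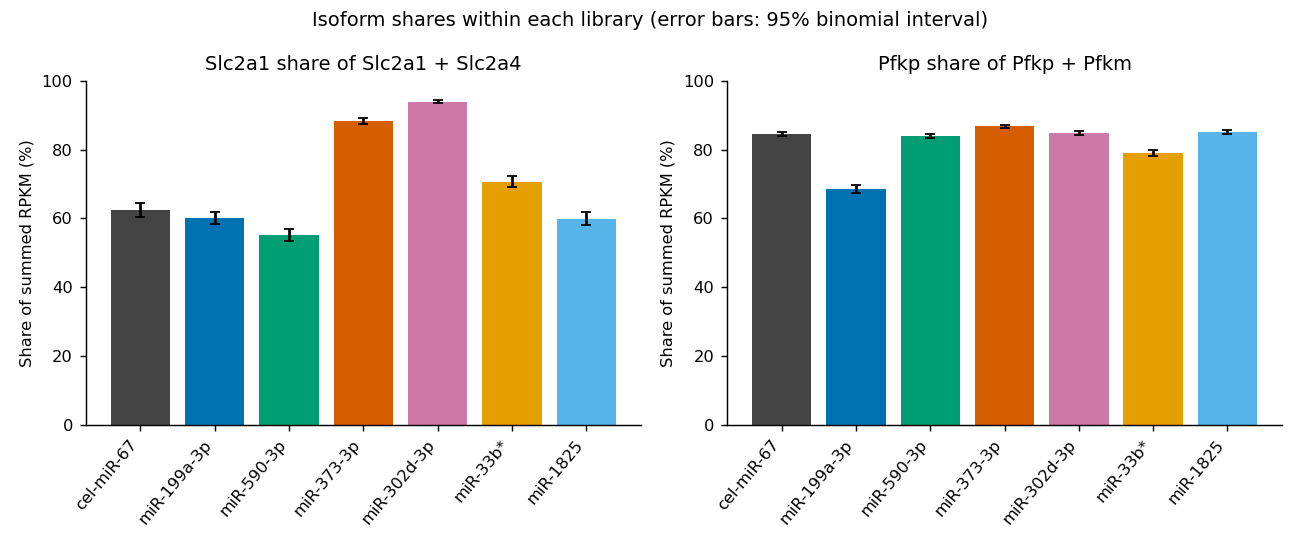
Share of Slc2a1 in the summed RPKM of Slc2a1 and Slc2a4 (left) and of Pfkp in that of Pfkp and Pfkm (right) in each library, in percent from 0 to 100, with 95% binomial intervals as error bars. The Slc2a1 share is 94.0% in the miR-302d-3p library and 88.4% in the miR-373-3p library, and the Pfkp share is 68.5% in the miR-199a-3p library.

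Cells other than cardiomyocytes also carry GLUT1, among them endothelial and red blood cells. Endothelial markers (9 of 10 matched, 4 with a mean of at least 1 RPKM) summed to 23.1 RPKM in the control, 17.9 after miR-373-3p and 16.8 after miR-302d-3p, with 14.3 to 16.4 in the other 4 libraries. Erythroid markers (5 of 10 matched, 1 with a mean of at least 1 RPKM) summed to 4.26, 3.28 and 2.37 RPKM in the first 3 of these, and to 2.98 to 5.29 elsewhere. The endothelial sum is mostly Eng, at 15.6 RPKM in the control, 12.4 after miR-373-3p and 10.9 after miR-302d-3p, and its members went both ways. In the same order Plvap was at 2.21, 0.756 and 1.06 RPKM, Tek at 2.09, 2.45 and 2.56, and Kdr at 1.26, 1.18 and 1.25. Cldn5 was near the floor throughout, with 0 reads in the control and at most 4 in any library. The erythroid sum is mostly Hbb, with 50, 55 and 42 reads in these 3 libraries, while Alas2 had 4, 13 and 15 reads. Fibroblast markers (11 of 11) summed to 853 RPKM in the control and to 689 after miR-373-3p and to 614 RPKM after miR-302d-3p, with 566 to 817 elsewhere. Smooth muscle markers (10 of 10) were at 780, 823 and 788 RPKM in the same order and at 1000 to 1197 elsewhere. The level sum hides members that went both ways. Cnn1 was at 88.8, 230.7 and 234.9 RPKM, Acta2 at 163.8, 126.1 and 114.8, and Tagln at 478.5, 426.8 and 398.8. Of the 10, 4 were above the control after miR-373-3p and 3 after miR-302d-3p. Macrophage and leukocyte markers (10 of 10) were at 21.5, 19.1 and 14.1 RPKM, and at 16.6 to 19.4 elsewhere. What share of Slc2a1 reads came from each cell type was not tested.

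Sequence just before the annotated starts is shown for the genes whose level departed most from the control, Slc2a1, Pfkl and Pfkp, as RefSeq gives it on build GRCr8. The submitters' processing notes name another build, Rnor_6.0, so the windows are not matched to the reads by position. Windows hold the 250 bases before the start, 5′ to 3′ on the gene's strand, and 8 of the 9 genes matched. Capitals mark, on either strand, ACGTG, a form of the core of the hypoxia response element, and GGGCGG, the GC box bound by Sp1-type factors.
Slc2a1, chr5:138002272-138002521, plus strand: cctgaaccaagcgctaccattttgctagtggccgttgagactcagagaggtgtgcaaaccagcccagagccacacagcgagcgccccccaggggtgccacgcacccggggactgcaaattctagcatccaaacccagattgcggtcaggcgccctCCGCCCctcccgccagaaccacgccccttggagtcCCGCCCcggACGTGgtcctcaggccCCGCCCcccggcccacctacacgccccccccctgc
Pfkl, chr20:10663715-10663964, plus strand: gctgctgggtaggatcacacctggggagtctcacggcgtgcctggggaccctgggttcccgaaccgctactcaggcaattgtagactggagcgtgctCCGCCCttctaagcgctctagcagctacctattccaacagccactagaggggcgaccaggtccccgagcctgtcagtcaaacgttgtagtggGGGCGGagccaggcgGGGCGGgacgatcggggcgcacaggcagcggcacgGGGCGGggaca
Pfkp, chr17:68639563-68639812, plus strand: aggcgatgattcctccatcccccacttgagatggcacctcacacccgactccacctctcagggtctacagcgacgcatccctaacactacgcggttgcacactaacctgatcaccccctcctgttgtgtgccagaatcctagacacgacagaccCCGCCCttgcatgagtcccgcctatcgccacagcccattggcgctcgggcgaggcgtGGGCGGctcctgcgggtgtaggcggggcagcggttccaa
In the Slc2a1 window ACGTG begins 51 bases before the start and GGGCGG begins 95, 60 and 35 bases before it. The Pfkl window holds 4 GC boxes and the Pfkp window 2, and neither holds ACGTG. The other form of that core, GCGTG, was not marked or counted, and its letters stand on either strand in all 3 windows printed. Of 33469 RefSeq windows of this length 16.6% hold ACGTG and 30.5% hold GGGCGG. Among the other members, 1 of the 2 Hk1 windows and the Pfkm and Pfkfb3 windows hold ACGTG. In Pfkfb3 it lies within the palindrome CACGTG, the E-box, which is found in 5.59% of all windows and counts on both strands. G and C made up 68.4%, 66.0% and 62.8% of the bases of the 3 windows printed, against a median of 51.2% over all windows. These matches describe letters only; binding was not measured.

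Hexokinase 1, the constitutive form bound to mitochondria, was nearly level. Hk1 stood at 65.0 RPKM in the control, at 66.7 to 69.8 after miR-373-3p, miR-590-3p, miR-199a-3p and miR-302d-3p, and at 56.8 and 55.4 after miR-33b* and miR-1825. Its highest library exceeded its lowest by 1.26 times, and its SD of 0.14 was below the 0.195 of the median gene. Hk1 was 0.874-fold the control after miR-33b* (0.835 to 0.915) and 0.854-fold after miR-1825 (0.817 to 0.892), beyond counting error but small.

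Hk2, the insulin-responsive and inducible hexokinase of adult muscle, was much scarcer and varied more. Its level was 5.56 RPKM in the control, 6.29 after miR-302d-3p, 7.60 after miR-590-3p, 7.85 RPKM after miR-199a-3p, 9.39 after miR-1825, 10.6 after miR-373-3p and 10.8 after miR-33b*. The control was the lowest library, and no fold reached 2: the largest were 1.93 after miR-33b* (1.76 to 2.12), 1.90 after miR-373-3p (1.74 to 2.08) and 1.69 after miR-1825 (1.54 to 1.85). Hk2 thus supplied 7.89% of hexokinase RPKM in the control (7.31% to 8.50%), 8.26% after miR-302d-3p (7.80% to 8.74%), and 13.7%, 14.5% and 15.9% after miR-373-3p, miR-1825 and miR-33b*. Summed hexokinase RPKM stayed within 0.919 and 1.10 times the control in the 6 miRNA libraries.

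Phosphofructokinase transcripts were dominated by Pfkp, the platelet-type isoform, in all 7 libraries. Pfkp was at 178.2 RPKM in the control, 187.2 after miR-373-3p, 175.4 RPKM after miR-302d-3p, 158.0 after miR-590-3p, 146.1 after miR-1825, 128.8 after miR-33b* and 55.9 after miR-199a-3p. The miR-199a-3p library stood apart, 2.31-fold below the next lowest (2.21 to 2.40). Against the control its Pfkp level was 0.314-fold (0.301 to 0.326, from 3401 and 9091 reads), a log2 change of -1.66 that ranked 31 from the bottom of 12330 genes. After miR-33b* Pfkp was at 0.723-fold (0.700 to 0.747), and after miR-302d-3p at 0.984-fold (0.959 to 1.01), within counting error and with a sign that turns when libraries are scaled to the reads of all listed genes (log2 0.23). The median of all genes in the miR-302d-3p library was also 0.23 under that scaling.

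Of the transfected miRNAs, the table of rat miRNAs used here holds miR-199a-3p, after which Pfkp was lowest. The rat mature sequence is given with its seed, bases 2 to 8, in capitals (RefSeq, GRCr8, chr13:77116294-77116315, plus strand).
rno-miR-199a-3p: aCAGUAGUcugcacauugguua
The transfected molecule bears the human name, and whether Pfkp transcripts hold a match to this seed was not analysed here.

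Pfkm, the muscle isoform, varied little. It was at 32.7 RPKM in the control and between 25.6 (miR-1825) and 34.2 (miR-33b*) in the others. Both miR-199a-3p (0.786-fold, 0.743 to 0.833) and miR-1825 (0.783-fold, 0.740 to 0.830) were below the control beyond counting error. Scaled to the reads of all listed genes, Pfkm after miR-199a-3p was level with the control (log2 0.0096). That scaling put the median of all genes in this library at 0.31, so Pfkm stayed below the median gene. Pfkp made up 84.5% of Pfkp plus Pfkm in the control (83.9% to 85.1%), 68.5% after miR-199a-3p (67.4% to 69.7%) and 79.0% after miR-33b* (78.3% to 79.8%). In the other 4 libraries this share lay between 83.9% (miR-590-3p) and 86.8% (miR-373-3p).

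Pfkl, the liver-type isoform, divided the libraries in another way. It was at 14.9 RPKM in the control and 14.0 after miR-199a-3p, but at 27.3 after miR-590-3p, 28.5 after miR-302d-3p, 29.7 after miR-1825, 32.3 after miR-33b* and 33.2 RPKM after miR-373-3p. The 5 higher libraries lay close together, and 1.82-fold (1.68 to 1.98) separated the lowest of them from the control. Folds over the control were 2.22 after miR-373-3p (2.06 to 2.40) and 2.16 after miR-33b* (2.00 to 2.34), both counted, and 1.99, 1.90 and 1.82 after miR-1825, miR-302d-3p and miR-590-3p, which fell short of the limit on the log2 scale with 0.95, 0.89 and 0.83. After miR-199a-3p it was at 0.940-fold (0.859 to 1.03), a log2 change of -0.08 that becomes 0.25 when libraries are scaled to the reads of all listed genes. The median of all genes in the miR-199a-3p library was 0.31 under that scaling, so 0.25 is no rise beside other genes. The 5 comparisons share 1 control, so a low value there would appear in all of them.

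Added together, the 3 isoforms came to 225.8 RPKM in the control and 95.6 after miR-199a-3p, 0.423 times the control. The sums of the other 5 lay between 195.3 (miR-33b*) and 248.8 (miR-373-3p). Within the sum Pfkl held 6.62% in the control and 12.1% to 16.5% in the 6 miRNA libraries. After miR-199a-3p that share was 14.7% although the Pfkl level itself was not above the control, because Pfkp was lower. Pfkm held 26.9% there and 11.4% to 17.5% elsewhere. In the miR-199a-3p library cardiomyocyte markers summed to 7211 RPKM against 9054 in the control, and smooth muscle markers to 1197 against 780. The 2 sums were 7211 and 1073 after miR-1825 and 6610 and 1014 after miR-590-3p, where Pfkp was at 146.1 and 158.0 RPKM. What part these cell types had in the Pfkp level was not tested.

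**Figure D4:**
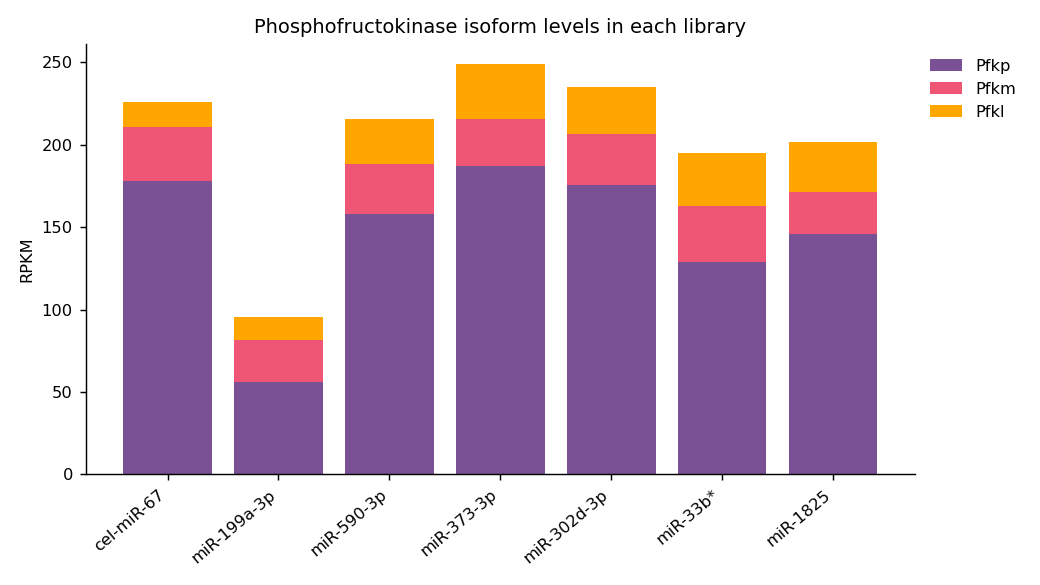
Stacked RPKM of Pfkp, Pfkm and Pfkl in each of the 7 libraries. The miR-199a-3p column, at 95.6 RPKM, is less tall than the other 6, and the Pfkl segment is 14.9 RPKM in the control and 27.3 to 33.2 RPKM in 5 of the miRNA libraries.

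The PFKFB regulators were scarce. Pfkfb2, the heart isoform whose kinase activity is raised by insulin and adrenaline signalling, was at 2.83 RPKM in the control and at 1.81 to 2.19 in the 6 miRNA libraries. The folds ran from 0.641 after miR-373-3p (0.547 to 0.751) to 0.776 after miR-302d-3p (0.671 to 0.898), and the 6 levels were within counting error of their neighbours. They rest on 257 to 411 reads each, and on 346 reads in the 1 control library. Pfkfb3, the inducible isoform that strongly favours synthesis of the activator, was at 2.48 RPKM in the control, 2.36 after miR-373-3p, 2.29 RPKM after miR-302d-3p, 3.42 after miR-199a-3p, 3.79 RPKM after miR-590-3p, 3.80 after miR-1825 and 4.51 after miR-33b*. The 3 lowest libraries followed one another within counting error, with signs against the control that turn under the same scaling (log2 0.09 and 0.10), and miR-33b* was highest at 1.82-fold (1.58 to 2.11). Pfkfb3 made up 46.7% of the 2 regulators' RPKM in the control (42.8% to 50.7%), 51.1% after miR-302d-3p (47.7% to 54.6%), and 56.6% to 68.0% in the other 5 libraries.

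The miR-302d-3p and miR-373-3p libraries are of special use, since these miRNAs are known to share a seed and can be compared without the control. They are not replicates. Among genes of like mean expression, taken in 20 groups of 616 or 617, the SD of the log2 difference was 0.15 to 0.26 in the groups that hold the 9. Slc2a1 was higher after miR-302d-3p by 0.63 (1.56-fold, 1.51 to 1.61), 3.42 times that SD, and Hk2 was lower by a difference of -0.67 (0.594-fold, 0.552 to 0.640), 3.80 times the SD. Slc2a4 differed by -0.35, 1.94 times the SD, and Pfkl by -0.22, 1.48 times. Of the genes of like mean, 1.46% differed by more in size than Slc2a1 and 0.325% by more than Hk2. For Slc2a4 the share was 5.67% and for Pfkl 11.85%. The remaining 5 genes differed by less than 1 SD. Both libraries were high in Slc2a1 and low in Slc2a4, to unequal degrees, while Hk2 was near the control in one (1.13-fold, 1.03 to 1.24) and not in the other.

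**Figure D5:**
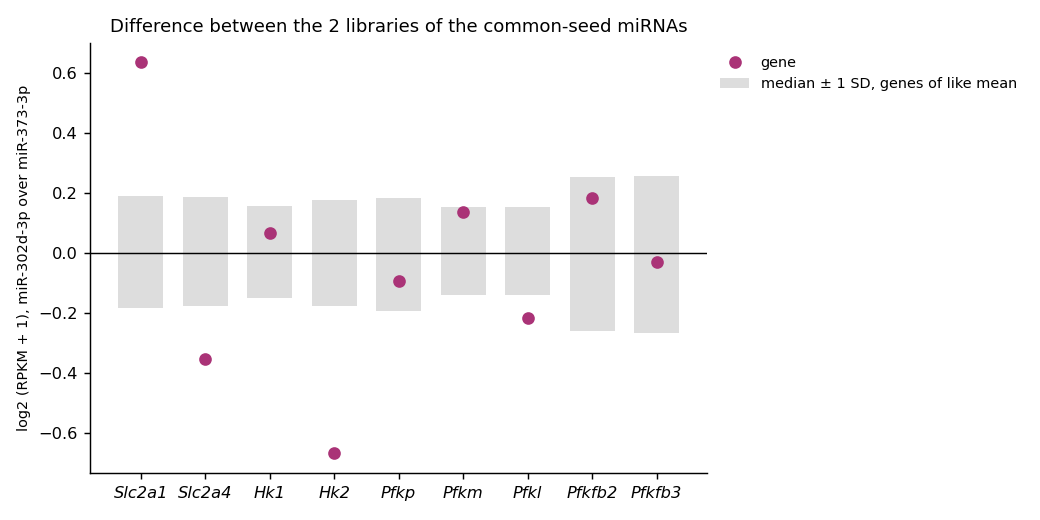
Log2 difference of (RPKM + 1) between the miR-302d-3p and miR-373-3p libraries for the 9 genes (points), over grey bars that span the median plus or minus 1 SD of genes of like mean expression. Slc2a1 (0.63), Slc2a4 (-0.35), Hk2 (-0.67) and Pfkl (-0.22) lie outside their bars.

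Other genes of uptake and upper glycolysis were read from lists, with a gene called measured at a mean of at least 1 RPKM. Over all 12330 genes the median change lay between -0.0034 and 0.015 in the 6 libraries. Of the other glucose transporters 4 were measured, 0 passed 2-fold in any library, and the list median lay between 0.0087 and 0.13. Slc2a3, which encodes the high-affinity carrier GLUT3, was at 8.33 RPKM in the control, 12.1 after miR-590-3p, 12.4 RPKM after miR-373-3p and 8.25 to 9.83 in the other 4. The list of further hexose phosphorylation and upper glycolysis genes had 8 measured rows and medians of 0.25 (miR-373-3p), 0.24 (miR-302d-3p), 0.18 (miR-590-3p), 0.15 (miR-33b*), 0.019 (miR-199a-3p) and 0.0006 (miR-1825). In it Gckr, which encodes the glucokinase regulatory protein known from liver, was at 0.328 RPKM in the control (21 reads), 4.99 after miR-373-3p (432 reads), 7.06 after miR-302d-3p (692 reads) and 3.44 after miR-33b* (218 reads). Its log2 changes there were 2.17, 2.60 and 1.74, in the 3 libraries where Slc2a1 was also highest, and it was at 0.589 to 0.826 RPKM in the other 3. Gckr reached a mean of 1 RPKM only through the 3 libraries where it was high. The aldolase gene Aldoc was at 14.6 RPKM in the control, 22.5 after miR-33b* and 5.04 to 6.90 in the other 5, with log2 changes of -1.37, -1.32, -1.11 and -1.04 after miR-199a-3p, miR-1825, miR-590-3p and miR-373-3p. Pfkfb4, another bifunctional regulator, has 2 gene identifiers that may divide its reads, at 0.802 and 1.04 RPKM in the control and 2.17 and 2.51 after miR-302d-3p.

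Downstream, 15 rows of lower glycolysis and lactate handling were measured, and Pkm stands there under 2 identifiers. Their medians were 0.44 (miR-33b*), 0.39 (miR-590-3p), 0.31 (miR-1825), 0.25 (miR-302d-3p), -0.0069 (miR-199a-3p) and 0.30 (miR-373-3p). Rows past 2-fold were 1 higher after miR-590-3p, 1 higher after miR-373-3p, and 2 higher and 1 lower after miR-33b*. The enolase gene Eno2 was at 10.4 RPKM in the control and 35.2 after miR-33b* (log2 1.66). The lactate exporter gene Slc16a3 was at 18.0 RPKM in the control and 24.9 to 40.1 in the others, with log2 changes of 1.11, 1.02 and 1.01 after miR-373-3p, miR-590-3p and miR-33b*. Pgam2, the muscle phosphoglycerate mutase, was at 11.1 RPKM in the control and 4.76 after miR-33b* (log2 -1.08).

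In the list for GLUT4 storage and insulin signalling 21 genes were measured. The list medians were 0.03 after miR-199a-3p and between -0.15 (miR-302d-3p) and -0.04 in the other 5. Pik3r1, the regulatory subunit of PI 3-kinase, was at 13.4 RPKM in the control and 5.65 after miR-302d-3p (log2 -1.12), the 1 gene of this list past 2-fold. Across the 6 pathway lists 9 of 80 measured rows (11.2%) passed 2-fold in at least 1 library, against 9.59% of all genes. Of the 9 members 3 did. Among the 80 rows, Gckr met the limit of 1 RPKM only through libraries where it was high.

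By the shape of their profile over the 7 libraries, the genes nearest to each member were found among 7436 protein-coding genes whose mean reached 5 RPKM, by the root mean square difference of centred log2(RPKM + 1). Nearest to Slc2a1 were Csrp2 (0.22), Cdh3 (0.22) and Sri (0.30), where a flat profile would be at 0.83. Csrp2, which encodes a cysteine- and glycine-rich LIM-domain protein, was at 14.1 RPKM in the control, 53.3 after miR-302d-3p and 41.3 RPKM after miR-373-3p. Nearest to Pfkp were Coa5 (0.12), AC133270.1 (0.14) and Atp5l (0.15), against 0.56 for a flat profile, and Coa5 was at 33.9 RPKM in the control and 9.91 after miR-199a-3p. Nearest to Slc2a4 were Tbc1d8b (0.13), Lamb3 (0.14) and Bri3 (0.16), and nearest to Pfkl were Ptprn (0.15), Ggct (0.17) and Arl15 (0.18). For Hk2 they were Itgb3bp, LOC102557117 and Cenph (0.12 to 0.15), and for Pfkfb3 Lama5, Ppp3r1 and H2afv (0.07 to 0.11). The profiles of Hk1, Pfkm and Pfkfb2 were nearer to flat on this scale than those of the other members, and had neighbours within 0.04 to 0.07. These were Zscan21, Rmnd5b and Lars, Metap1, RGD621098 and Gpam, and Slc39a1, Pigp and Vav2. Pfkfb2 is scarce, so the added 1 RPKM narrows its differences, and its level was lower than the control in all miRNA libraries. With 7 libraries and 7436 genes, close profiles are a description of these libraries.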

How the data were processed

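Polyadenylated transcripts were sequenced in 7 libraries, 1 per transfected miRNA. The authors deposited RPKM values for 17141 genes and, per the file headers, a ratio per gene in which the RPKM after each miRNA is divided by that after cel-miR-67. The submitters' processing notes list STAR 2.7, edgeR and Rnor_6.0 without saying what each was used for. Annotation, read counter, strand setting and filters were not given in the sources used here, so reads of overlapping genes could not be told apart. The 7 single-library files held the same RPKM as the series table, and 117199 ratios were recomputed from nonzero RPKM and matched to a relative 1e-06.

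Each RPKM is a whole number of reads over gene length and library size. A length and 7 library sizes that turn the RPKM into whole reads could be found for 100% of genes. The fit held within 0.002 reads (0.05 for genes with many reads). This step and the 2-fold limit were tested on simulated data. Listed reads came to between 85.5% (miR-199a-3p) and 109.5% (cel-miR-67) of the size found, so these sizes are not read totals. The RPKM thus carry a further factor per library, whose source was not given. Scaling to the reads of all listed genes takes that factor out. With the factor in, the median change of all genes lay between -0.0034 and 0.015, and without it the median reached 0.31 (miR-199a-3p). Mitochondrial transcripts held 27.7% of reads in the miR-199a-3p library and 41.0% in the cel-miR-67 library. Whether that share underlies the factor was not tested. Reads served for exact 95% intervals (Clopper-Pearson for ratios and shares, Poisson for levels), computed with Python 3.11.15 and scipy 1.17.1. They cover counting error only. Shares are of summed RPKM, per length. Changes carry a pseudocount of 1 RPKM, which understates low genes.

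With 1 library per group no test was run. The members, the 6 pathway lists, the marker lists and the naming rule were chosen with earlier results of these data known, and lists were written from general knowledge. The text names all 9 members, list genes past 2-fold in at least 1 library and the 3 nearest profiles of each member. Outside this rule, Slc2a3, Pfkfb4 and Pkm were chosen after their values were seen. So were the markers Eng, Plvap, Tek, Kdr, Cldn5, Hbb, Alas2, Cnn1, Acta2 and Tagln and, in the closing section, Hif1a, Epas1, Txnip and Akr1b1. Alternatives were other pseudocounts, scalings, references, fold limits, filters and denominators.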

Additional observations from a re-analysis of the deposited data

How the results depend on the processing

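No paired analysis was possible because each group has 1 library, and for the same reason no library could be left out of a group. The 5 calls past 2-fold kept their direction under every pseudocount, scaling and reference tried. With a pseudocount of 5 the higher counts were 1 for miR-373-3p and 0 for miR-33b*, since Pfkl was at 0.94 and 0.90. Scaling to the reads of all listed genes moved the median of all genes by up to 0.31 (miR-199a-3p), put 2 members higher after miR-302d-3p and 1 after miR-1825, and left Pfkp at -1.30 after miR-199a-3p and Slc2a1 at 2.53 after miR-302d-3p. It turned the sign of 6 of 54 changes, none above 0.34 in size. A limit of 1.5-fold gave 2 higher after miR-590-3p, 3 higher after miR-373-3p, and 2 higher and 1 lower after miR-302d-3p. It gave 4 higher after miR-33b* and 2 higher after miR-1825. For this limit, and for the other pseudocounts, scalings and references, the share of all genes past the limit is not given here. The member counts under these settings thus have no background beside them. With the other 5 miRNA libraries averaged as the reference 3 members were lower after miR-199a-3p, 1 after miR-302d-3p and 1 after miR-1825, and 0 were higher after miR-373-3p or miR-33b*. There Pfkl was at -1.05 after miR-199a-3p, Slc2a4 at -1.05 after miR-302d-3p, and 17 of 54 changes differed in sign from those against cel-miR-67.

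In reads not divided by length, the Slc2a1 share was 65.0% (cel-miR-67), 94.6% (miR-302d-3p), 89.4% (miR-373-3p), 62.5% (miR-1825), 62.7% (miR-199a-3p), 72.9% (miR-33b*) and 57.9% (miR-590-3p), and the Pfkp share, in the same order, 78.8%, 79.2%, 81.8%, 79.5%, 59.7%, 72.0% and 78.0%. With the 6 transporters Slc2a1, Slc2a3, Slc2a4, Slc2a8, Slc2a10 and Slc2a12 in the denominator the Slc2a1 share was 45.0%, 83.2%, 72.3%, 42.9%, 44.1%, 54.1% and 40.6%. With Pfkl added the Pfkp share was 78.9%, 74.6%, 75.2%, 72.5%, 58.4%, 66.0% and 73.3%. Depth limits Pfkfb2 and Pfkfb3 most, with 257 to 531 reads per library.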

Other observations

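Genes that feed from or regulate glucose use were read from further lists. Of 17 measured regulators of glycolytic gene expression and uptake, 1 was past 2-fold higher and 1 lower after miR-302d-3p and 0 in the other libraries, and the list median was -0.31 after miR-302d-3p, -0.33 after miR-373-3p and between -0.14 and 0.04 in the other 4. Arrdc4, an arrestin-domain gene related to Txnip, was at 5.30 RPKM in the control and 12.2 after miR-302d-3p (log2 1.07). Egln3, an oxygen-dependent prolyl hydroxylase that acts on hypoxia-inducible factors, was at 43.9 RPKM in the control, 28.9 after miR-373-3p and 18.1 after miR-302d-3p (log2 -1.23), the libraries highest in Slc2a1. Hif1a itself was at 24.3 RPKM in the control and at 36.0 and 36.2 in those 2 libraries, with 24.6 to 31.9 in the other 4. Epas1, of the same list, was at 2.67 RPKM in the control, 1.43 after miR-373-3p and 1.80 after miR-302d-3p. Of the 17 genes, 5 were above the control after miR-373-3p and 4 after miR-302d-3p. Any link of these genes to the Slc2a1 level was not tested. Txnip, whose protein lowers glucose uptake, was at 93.7 RPKM in the control and 53.2 to 77.2 in the 6 miRNA libraries.

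In the branch pathways of glucose 15 genes were measured, with list medians between -0.02 (miR-1825) and 0.20 (miR-33b*). The glycogen phosphorylase gene Pygm, at 68.5 RPKM in the control and 29.3 after miR-1825 (log2 -1.20), was the 1 gene past 2-fold. Akr1b1, the aldose reductase of the polyol pathway, was at 80.4 RPKM in the control, 136.0 after miR-373-3p and 147.5 after miR-302d-3p, against 59.3 to 84.2 in the others. Hif1a, Epas1, Txnip and Akr1b1 were chosen for mention after their values were seen.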
